A study of Mus musculus with 6 samples.

Results

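The proteases and markers of mast cells were examined in whole mouse skin, as 10 genes chosen by symbol out of 27179 genes counted. They are the chymases Cma1 and Mcpt4, the tryptases Tpsb2 and Tpsab1, the carboxypeptidase Cpa3, the IgE receptor chains Fcer1a and Ms4a2, the secretagogue receptor Mrgprb2, the histamine-forming enzyme Hdc and the transcription factor Gata2. All 10 had counts in every library, and 9 passed the filter on low counts. Fcer1a did not pass and was not tested.

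Total RNA was sequenced from skin of female BALB/c mice, an albino inbred strain, aged 6 to 8 weeks. Bleomycin plus EHP-101, a drug made from a cannabidiol derivative, gave 1 library. Bleomycin plus ajulemic acid, a man-made cannabinoid, gave 3, bleomycin skin with no drug gave 1, and control skin gave 1. Bleomycin is a DNA-damaging agent used to model the skin fibrosis of scleroderma, and the labels give no dose, route, time or vehicle. The labels do not say whether the 3 ajulemic acid libraries are from 3 mice. The p-values therefore reflect the spread among those libraries, which could be technical. The single libraries have no replicate check, and the tests assumed that they vary like the ajulemic acid libraries.

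Mast cells are tissue-resident cells of blood origin that lie along vessels, nerves and follicles of the dermis and are counted in the histology of bleomycin skin. Connective tissue mast cells store heparin, histamine, chymases, tryptases and carboxypeptidase in granules and release them when IgE bound to its receptor is cross-linked or when a basic peptide engages Mrgprb2. Mucosal mast cells carry other chymases, Mcpt1 and Mcpt2, and basophils carry Mcpt8. In whole skin, a lower level of these transcripts can mean fewer mast cells or less RNA per cell, and these cannot be told apart.

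The libraries held between 14291592 and 19837682 counts. The keratinocyte markers Krt5, Krt14 and Krt10 were at 1110 CPM or more in each, so skin was present in each, though not skin alone. CPM are counts per 1e+06 counts of a library after TMM scaling. The libraries differed in what else they held. The muscle markers Acta1, Ckm and Myh4 summed to 2570 CPM in bleomycin alone and 1330 CPM in control. The adipocyte markers Adipoq, Plin1 and Fabp4 summed to 372 and 1250 CPM in the same order. The 3 hepatocyte markers summed to 6.27, 13.1 and 2.09 CPM in ajulemic acid replicates 1, 2 and 3, against 471 CPM with EHP-101, 496 CPM in bleomycin alone and 712 CPM in control. The hair follicle markers Krt35 and Msx2, the 2 of 3 on that list with a row here, summed to 14.2 CPM in ajulemic acid replicate 2 and 16.4 CPM in bleomycin alone, and to between 160 and 387 CPM in the other libraries.

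The chymase genes lie together in the mm10 genome on chromosome 14, Cma1 at 55941451 to 55944661 and Mcpt4 at 56059744 to 56062310, both on the minus strand. The tryptase genes are neighbours on chromosome 17, Tpsab1 at 25343245 to 25345562 on the minus strand and Tpsb2 at 25366333 to 25368092 on the plus strand. Cpa3 lies on chromosome 3 at 20215616 to 20242181, Hdc on chromosome 2 at 126593668 to 126618665 and Mrgprb2 on chromosome 7 at 48550965 to 48558086. Gata2 is on chromosome 6 at 88198664 to 88207032. The IgE receptor chains are on chromosome 1 for Fcer1a, at 173221271 to 173227229, and on chromosome 19 for Ms4a2, at 11617193 to 11623643. Reads of 1 tryptase could be told from those of the other. The longest coding transcripts of Tpsab1 and Tpsb2 were identical at 74.5% of 1171 aligned bases and shared no stretch of 50 bases, the read length, with any other gene of the GENCODE M21 transcripts. Cma1 shared 5.38% of its 50-base stretches with Gm48934, Mcpt4 shared 5.48% with Cma2 and Mcpt9, and Ms4a2 shared 2.69% with Ms4a4b. Mcpt9 had no count in any library, and Cma2 had at most 1. The reference strain C57BL/6 carries a splicing defect in Tpsab1 that BALB/c mice lack, and reads here were counted against the reference gene.

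The promoter windows below are those of 4 genes whose levels are set side by side in the results. Each is the 250 bases before the RefSeq gene start (GRCm38.p6), written 5′ to 3′ on the gene's strand. Capitals mark GATAA on either strand, a core to which GATA factors such as Gata2 bind. Other sequences that hold GATA were not sought or marked.

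Cma1 (chr14:55944676-55944925, minus strand): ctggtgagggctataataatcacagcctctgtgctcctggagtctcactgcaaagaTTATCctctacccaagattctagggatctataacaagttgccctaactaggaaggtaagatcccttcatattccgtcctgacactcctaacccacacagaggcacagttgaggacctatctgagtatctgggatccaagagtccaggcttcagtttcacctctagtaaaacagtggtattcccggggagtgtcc

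Mcpt4 (chr14:56062311-56062560, minus strand): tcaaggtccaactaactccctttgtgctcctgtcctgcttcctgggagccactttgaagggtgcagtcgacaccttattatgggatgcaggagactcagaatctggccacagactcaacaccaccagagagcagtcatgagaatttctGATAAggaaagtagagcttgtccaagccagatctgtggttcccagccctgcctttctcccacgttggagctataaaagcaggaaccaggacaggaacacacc

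Cpa3 (chr3:20242182-20242431, minus strand): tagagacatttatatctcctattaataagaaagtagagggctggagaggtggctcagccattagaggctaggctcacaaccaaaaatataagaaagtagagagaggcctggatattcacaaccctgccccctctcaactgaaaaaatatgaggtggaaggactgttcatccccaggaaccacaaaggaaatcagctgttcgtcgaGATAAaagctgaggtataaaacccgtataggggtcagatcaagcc

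Hdc (chr2:126618679-126618928, minus strand): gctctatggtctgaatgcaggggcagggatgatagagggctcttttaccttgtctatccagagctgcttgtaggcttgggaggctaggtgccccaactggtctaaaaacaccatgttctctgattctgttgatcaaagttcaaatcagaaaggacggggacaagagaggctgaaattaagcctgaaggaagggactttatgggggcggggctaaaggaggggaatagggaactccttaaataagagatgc

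RefSeq windows were found for 8 of the 10 genes, with none for Tpsb2 and Tpsab1. The GATA core occurred on either strand in 1 place in each of the windows of Cma1, Mcpt4, Cpa3, Mrgprb2 and Fcer1a and in 3 places in that of Ms4a2. It was not in the window of Hdc or in either of the windows of Gata2. Gata2 followed the protease levels more closely than Hdc did, as given below. Of all 32851 promoter windows of the same length, 22.6% held this core. CATGTG, a core of the E-box bound by the mast cell factor Mitf, was found on either strand only in the window of Fcer1a among these genes, and in 12.3% of all windows. These matches describe letters in a window and say nothing of binding or of why levels differ among genes.

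Levels per kilobase of exon set the order of the genes. Averaged over the 6 libraries, Mcpt4 was at 23.0 CPM per kb, Cpa3 at 19.8, Cma1 at 16.3 and Tpsb2 at 11.6 CPM per kb. Mrgprb2 followed at 5.79, Tpsab1 at 3.78, Hdc at 2.77 and Gata2 at 1.53 CPM per kb, and the IgE receptor chains were lowest, Ms4a2 at 0.857 and Fcer1a at 0.361 CPM per kb. The granule proteases Mcpt4, Cpa3, Cma1 and Tpsb2 therefore led the list, Tpsab1 came after the receptor Mrgprb2, and the IgE receptor chains closed it. This order of neighbours held in all 6 libraries with 3 exceptions. Cma1 exceeded Cpa3 in ajulemic acid replicate 3, Tpsab1 exceeded Mrgprb2 in replicate 1 and Gata2 exceeded Hdc in replicate 2. The proteases of mucosal mast cells and basophils were close to 0. Mcpt1 had at most 3 counts in a library and Mcpt2 at most 1, and the basophil protease Mcpt8 had between 0 and 4 and Prss34 at most 1. The 4 eosinophil markers Epx, Prg2, Siglecf and Ccr3 summed to 2.14 CPM with EHP-101, 2.45, 4.76 and 2.79 CPM with ajulemic acid, 2.76 CPM in bleomycin alone and 5.06 CPM in control, with Epx and Prg2 at 5 counts or fewer.

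**Figure D1:**
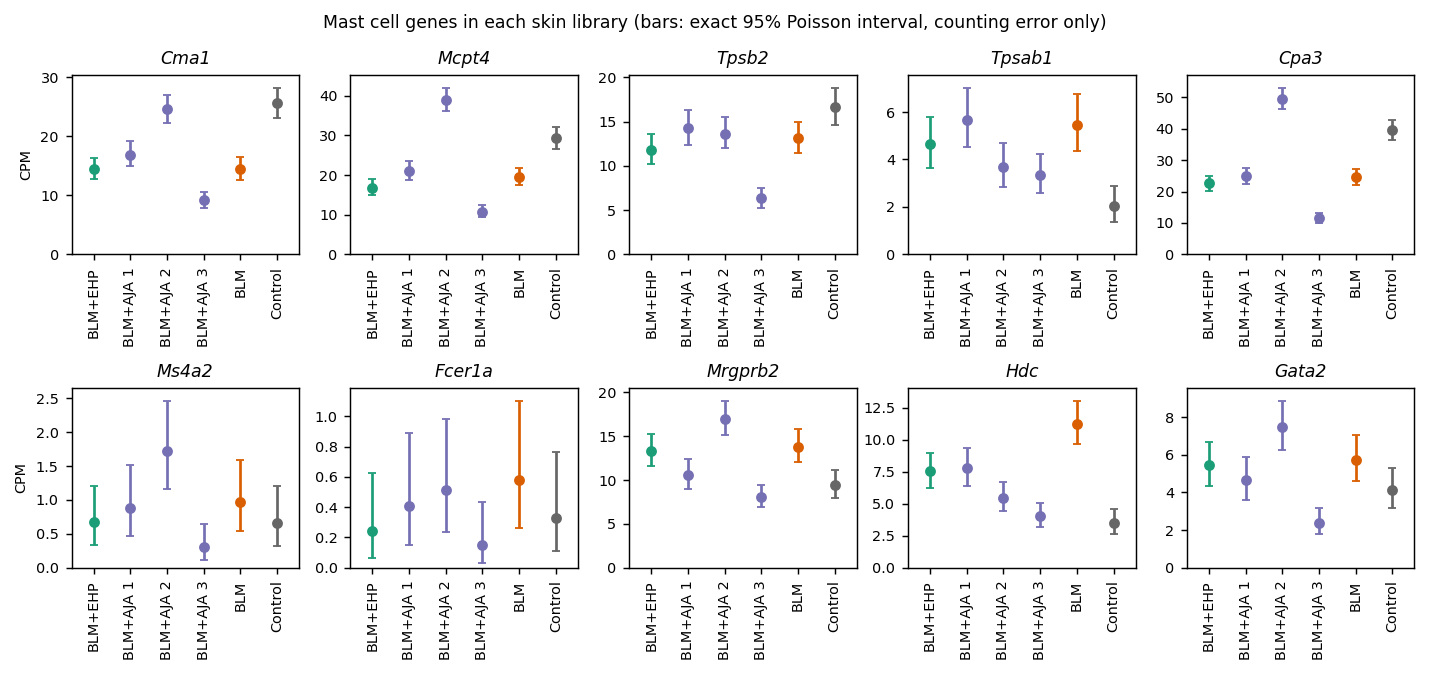
Level of each of the 10 mast cell genes in CPM (vertical axes start at 0) in the 6 skin libraries, with exact 95% Poisson intervals for counting error. Cma1, Mcpt4 and Cpa3 are high in ajulemic acid replicate 2 and in control and low in replicate 3, while Tpsab1 and Hdc are lowest in control.

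The chymases and the carboxypeptidase were lower in bleomycin skin than in control skin, but not beyond the spread taken from the ajulemic acid libraries. Cma1, the alpha-chymase, was at 14.5 CPM with EHP-101, at 16.9, 24.6 and 9.13 CPM in ajulemic acid replicates 1, 2 and 3, at 14.4 CPM in bleomycin alone and at 25.6 CPM in control. Control lay above the ajulemic acid range and the other single libraries lay inside it. Mcpt4, the mouse chymase of connective tissue mast cells closest in function to human chymase, was at 16.8 CPM with EHP-101, at 21.1, 38.9 and 10.8 CPM in the ajulemic acid libraries, at 19.5 CPM in bleomycin alone and at 29.3 CPM in control. Cpa3, which trims peptides that chymase has cut, was at 22.6 CPM with EHP-101, at 24.9, 49.6 and 11.6 CPM in the ajulemic acid libraries, at 24.6 CPM in bleomycin alone and at 39.5 CPM in control. For both of these genes, ajulemic acid replicate 2 was above control and replicate 3 was the lowest library.

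For bleomycin against control the log2 fold change was -0.82 (SE 0.68) for Cma1, -0.59 (SE 0.87) for Mcpt4 and -0.68 (SE 1.0) for Cpa3. The adjusted p by edgeR's quasi-likelihood test was 0.803 for Cma1 and 0.884 for each of the others. Counting error was small beside these differences, since the 95% Poisson intervals of Cma1 were 12.6 to 16.5 CPM in bleomycin and 23.1 to 28.2 CPM in control. The spread among the 3 ajulemic acid libraries was large, with averages of 16.9 ± 7.73 CPM for Cma1, 23.6 ± 14.2 CPM for Mcpt4 and 28.7 ± 19.3 CPM for Cpa3 (SD, n = 3). That is a coefficient of variation of 45.8, 60.2 and 67.3%.

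The tryptases had log2 fold changes of opposite sign in the same comparison. Tpsb2, the main tryptase of mouse connective tissue mast cells, was at 11.8 CPM with EHP-101, at 14.3, 13.6 and 6.33 CPM in the ajulemic acid libraries, at 13.1 CPM in bleomycin alone and at 16.6 CPM in control. Tpsab1, the tryptase also known as mMCP-7, was at 4.64 CPM with EHP-101, at 5.66, 3.67 and 3.34 CPM in the ajulemic acid libraries, at 5.45 CPM in bleomycin alone and at 2.04 CPM in control. Control was thus the highest library for Tpsb2 and the lowest for Tpsab1, and all 5 libraries exposed to bleomycin lay above control for Tpsab1. The log2 fold change of bleomycin over control was -0.34 (SE 0.62) for Tpsb2, with an adjusted p of 0.904. It was 1.42 (SE 0.52) for Tpsab1, a 2.67-fold difference, with an unadjusted p of 0.0449 and an adjusted p of 0.729 by edgeR. Neither passed.

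Hdc, histidine decarboxylase, the enzyme that makes histamine, had the largest difference among the tested members between bleomycin and control. It had 123 counts with EHP-101, 114, 95 and 81 in the ajulemic acid libraries, 175 in bleomycin alone and 53 in control. In CPM these were 7.51 with EHP-101, 7.77, 5.45 and 4.04 with ajulemic acid, 11.2 in bleomycin alone and 3.48 in control. Bleomycin alone was the highest library, control the lowest, and every treated library lay between them. The log2 fold change of bleomycin over control was 1.69 (SE 0.53), or 3.22-fold, with an unadjusted p of 0.0265 and an adjusted p of 0.713 by edgeR.

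Hdc is also made by neutrophils and basophils. A list of 8 neutrophil markers, drawn up after the Hdc values were seen, summed to 16.5 CPM with EHP-101, to 22.6, 29.0 and 19.1 CPM with ajulemic acid, to 38.2 CPM in bleomycin alone and to 11.7 CPM in control. In each library 7 of the 8 had a count, and Ly6g was at 0 in all 6. Much of the sum in bleomycin alone came from S100a9 and S100a8, which keratinocytes can also make. S100a9 gave 16.2 CPM there and 3.55 CPM in control, and S100a8 gave 6.8 and 4.14 CPM. The chemokine receptor Cxcr2 was at 0.976 CPM with EHP-101, at 2.93, 1.95 and 1.75 CPM with ajulemic acid, at 3.21 CPM in bleomycin alone and at 0.591 CPM in control. The receptor Csf3r was at 7.75 CPM with EHP-101, between 9.63 and 12.7 CPM with ajulemic acid, at 10.7 CPM in bleomycin alone and at 2.17 CPM in control. Single markers thus differed from the sum. Csf3r and the peroxidase Mpo were highest in ajulemic acid replicate 2, with Mpo at 1.83 CPM there and 1.03 CPM in bleomycin alone. The granule genes Camp and Ngp were lower in bleomycin alone, at 0.128 and 0.193 CPM, than in control, at 0.526 and 0.394 CPM. The part of neutrophils in the Hdc level was not tested. The basophil markers Mcpt8 and Prss34 were at or near 0 in every library, as given above, and Cd200r3, which mast cells share, was at 1.6 CPM in bleomycin alone and 1.05 CPM in control.

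The receptors showed no difference between bleomycin and control that passed the test. Mrgprb2, the mast cell receptor for basic secretagogues, was at 13.3 CPM with EHP-101, at 10.6, 17.0 and 8.08 CPM in the ajulemic acid libraries, at 13.8 CPM in bleomycin alone and at 9.40 CPM in control. The log2 fold change of bleomycin over control was 0.55 (SE 0.56, adjusted p = 0.834 by edgeR), opposite in sign to those of the chymases. Ms4a2, the beta chain of the IgE receptor, had 11 counts with EHP-101, 13, 30 and 6 with ajulemic acid, 15 in bleomycin alone and 10 in control. Fcer1a, the chain that binds IgE, had 4 counts with EHP-101, 6, 9 and 3 with ajulemic acid, 9 in bleomycin alone and 5 in control. With these counts and 1 library in each group, no difference between bleomycin and control was detectable in these IgE receptor chains. The 95% intervals of bleomycin and control overlapped for both, at 0.539 to 1.59 CPM against 0.315 to 1.21 CPM for Ms4a2. Ajulemic acid replicates 2 and 3 did not overlap for Ms4a2, at 1.16 to 2.46 CPM against 0.110 to 0.651 CPM.

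Gata2, a transcription factor needed for mast cell development, was at 5.43 CPM with EHP-101, at 4.64, 7.45 and 2.39 CPM in the ajulemic acid libraries, at 5.71 CPM in bleomycin alone and at 4.14 CPM in control. The log2 fold change of bleomycin over control was 0.46 (SE 0.80, adjusted p = 0.901 by edgeR). Endothelial cells also express Gata2. The summed level of the endothelial markers Pecam1, Cdh5 and Kdr was 140 CPM with EHP-101, 108, 114 and 80.9 CPM with ajulemic acid, 132 CPM in bleomycin alone and 111 CPM in control, all 3 markers being present in each library. The single markers differed in direction. In bleomycin alone and control, Pecam1 was at 76.2 and 45.5 CPM, Cdh5 at 31.0 and 25.7 CPM and Kdr at 24.8 and 39.9 CPM. Replicate 3 was lowest for Gata2 and for the endothelial sum, while replicate 2 was highest for Gata2 only. The part of endothelium in the Gata2 level was not tested.

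Over the list, 0 of the 9 tested members passed edgeR's test in bleomycin against control, where 0.0% of the 17377 genes tested were called higher and 0.0% lower. Before adjustment the higher members with a p under 0.05 were 2, Tpsab1 and Hdc, and the lower ones 0, against 4.7% of all genes higher and 2.1% lower. DESeq2 called 0 members, against 0.817% of its genes higher and 0.238% lower, and limma-trend called 0. The log2 fold change was above 0 for 5 members and below 0 for 4, against 49.5% of all genes above 0 and 50.5% below. The median was 0.46 over the 9 members and -0.59 over the 5 proteases, against -0.01 over all genes.

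**Figure D2:**
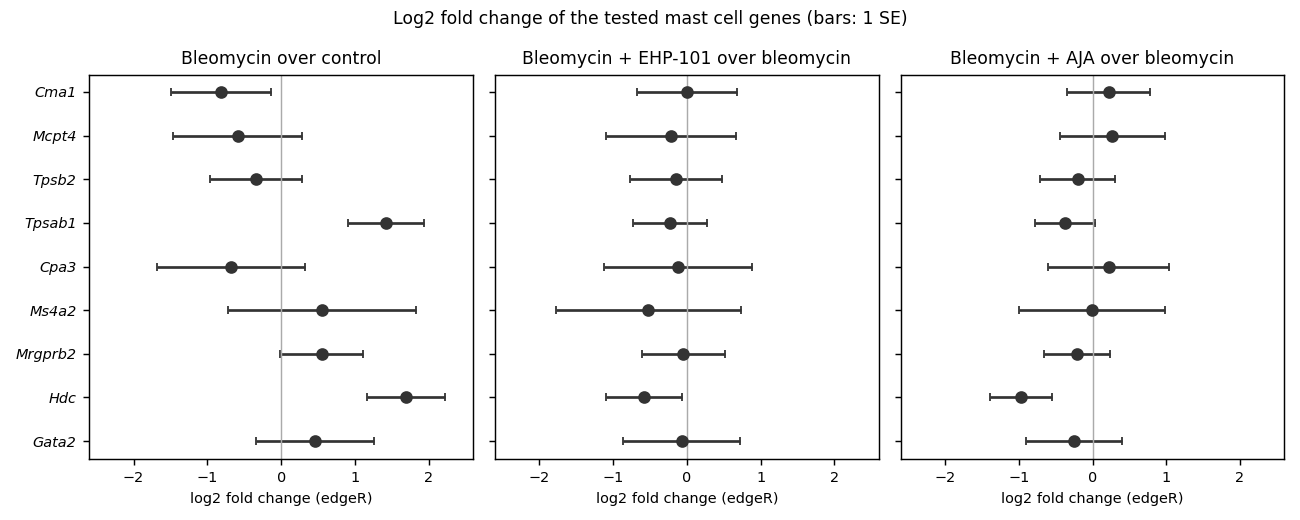
Log2 fold change (horizontal axes) of the 9 tested genes in bleomycin over control, bleomycin with EHP-101 over bleomycin, and bleomycin with ajulemic acid (AJA) over bleomycin, with bars of 1 SE. Tpsab1 and Hdc are at 1.42 and 1.69 on the left while Cma1, Mcpt4, Tpsb2 and Cpa3 are below 0, and most bars in the other panels cross 0.

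Ratios of 2 genes within a library do not depend on how libraries are scaled. Tpsab1 had 0.394 counts for each count of Tpsb2 with EHP-101, 0.397, 0.269 and 0.528 in ajulemic acid replicates 1, 2 and 3, 0.417 in bleomycin alone and 0.123 in control. The control interval of 0.0815 to 0.178 lay below that of every bleomycin-exposed library, of which the lowest began at 0.201 in ajulemic acid replicate 2. These exact 95% intervals cover counting error only, and with 1 control library the difference has no replicate check.

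Hdc had 0.332 counts for each count of Cpa3 with EHP-101, 0.312, 0.110 and 0.349 in the ajulemic acid libraries, 0.457 in bleomycin alone and 0.0882 in control. Ajulemic acid replicate 2 and control overlapped in this ratio, with intervals of 0.0879 to 0.136 and 0.0653 to 0.117, and the other 4 libraries lay above both. Mrgprb2 had 0.589 counts for each count of Cpa3 with EHP-101, 0.427, 0.342 and 0.698 with ajulemic acid, 0.561 in bleomycin alone and 0.238 in control. Here the control interval, 0.197 to 0.286, was again below those of all 5 exposed libraries, the nearest starting at 0.299. The ajulemic acid libraries alone ran from 0.342 to 0.698, a spread that these counting intervals leave out. The ratios of Tpsab1, Hdc and Mrgprb2 each set a gene lower in control than in bleomycin alone over one that was higher. They therefore restate the levels above. The share of pairs among all genes with such a gap was not computed. The chymases kept closer proportions, with 1.16 counts of Mcpt4 for each of Cma1 with EHP-101, 1.25, 1.58 and 1.19 with ajulemic acid, 1.35 in bleomycin alone and 1.15 in control.

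**Figure D3:**
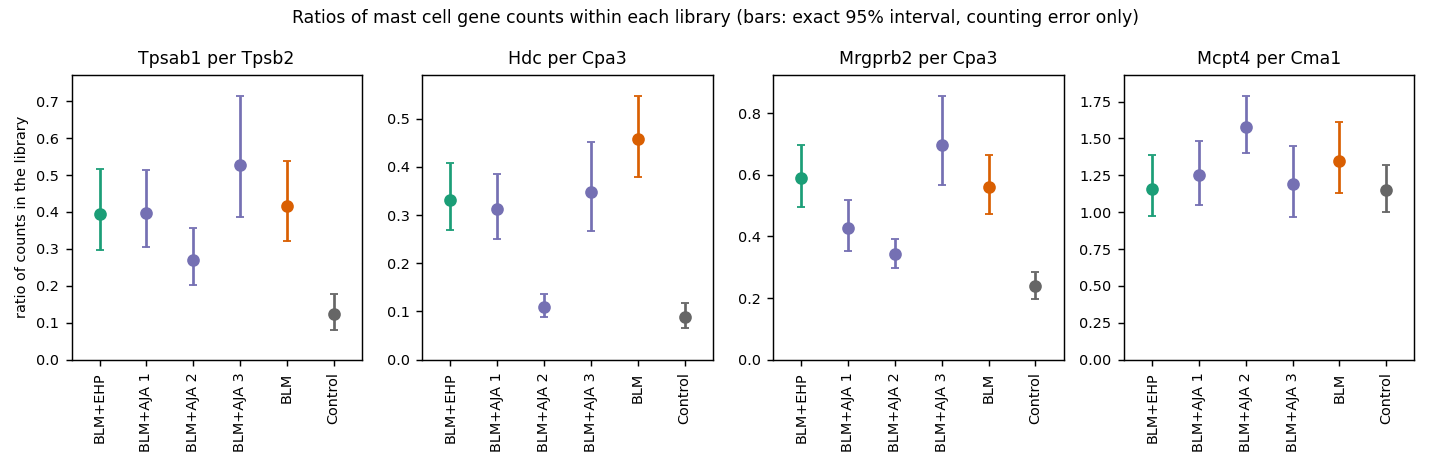
Ratio of the counts of 2 mast cell genes within each library (vertical axes start at 0), with exact 95% intervals for counting error. Tpsab1 per Tpsb2 and Mrgprb2 per Cpa3 are lowest in control at 0.123 and 0.238, Hdc per Cpa3 is low in ajulemic acid replicate 2 and in control, and Mcpt4 per Cma1 stays between 1.15 and 1.58.

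With EHP-101 the log2 fold changes of the proteases from bleomycin alone were smaller than their SE. Ms4a2 was at -0.52 (SE 1.26), and Fcer1a had 4 counts against 9 in bleomycin alone. With single libraries these values do not show that the levels were alike. Cma1 was at 14.5 CPM with EHP-101 and 14.4 CPM in bleomycin alone, and the log2 fold changes of the other proteases were -0.22 (SE 0.88) for Mcpt4, -0.12 (SE 1.0) for Cpa3, -0.15 (SE 0.62) for Tpsb2 and -0.23 (SE 0.50) for Tpsab1. Hdc had a log2 fold change of -0.58 (SE 0.51), with an adjusted p of 1.0 by edgeR and a 95% interval of -1.91 to 0.75. Of the 9 tested members 8 were below 0 and 1 above, against 50.0% of all genes below 0, and the median was -0.15. By edgeR 0 passed, where 0.0% of all genes were called higher and 0.0% lower. Before adjustment 0 members had a p under 0.05, against 0.575% of all genes higher and 1.32% lower. DESeq2 called 0 members, against 0.00867% of its genes higher and 0.0347% lower. The 95% interval of Cpa3, -2.81 to 2.57, spans large differences in both directions.

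With ajulemic acid the members lay on both sides of bleomycin alone. Hdc was at 5.75 ± 1.89 CPM (SD, n = 3) with ajulemic acid and 11.2 CPM in bleomycin alone, with all 3 libraries below it. Its log2 fold change was -0.97 (SE 0.42), with an unadjusted p of 0.0616 and an adjusted p of 0.998 by edgeR. The chymases and Cpa3 had small positive log2 fold changes, 0.22 (SE 0.56) for Cma1, 0.27 (SE 0.71) for Mcpt4 and 0.22 (SE 0.82) for Cpa3, that rested on replicate 2. Without that library they were -0.14, -0.28 and -0.42. The tryptases were at -0.20 (SE 0.51) for Tpsb2 and -0.37 (SE 0.41) for Tpsab1. By edgeR 0 of the 9 passed, where 0.0% of all genes were called higher and 0.0% lower, and 3 were above 0 and 6 below, against 52.8% of all genes above 0 and 47.2% below. Before adjustment 0 members had a p under 0.05, against 0.622% of all genes higher and 3.21% lower. DESeq2 called 0 members, against 0.02% of its genes higher and 0.501% lower. The median was -0.20 over the members and 0.02 over all genes.

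EHP-101 and ajulemic acid, both cannabinoid derivatives, were set against each other, though the labels give no doses. All 10 members in the EHP-101 library lay within the range of the 3 ajulemic acid libraries. Of all tested genes 18.3% lay above that range and 19.8% below it. The range was wide for the members, with coefficients of variation from 29.7% for Tpsab1 to 73.7% for Ms4a2. Most members were high in replicate 2 and low in replicate 3 together, so they are not separate observations. Their places inside the range therefore do not show that the drugs gave like levels. Bleomycin alone lay within that range for 8 members and above it for Hdc and Fcer1a, against 24.6% of all tested genes above. Fcer1a, which was not tested, had 9 counts both there and in ajulemic acid replicate 2, so its place rests on library size. Control lay within the ajulemic acid range for 6 members, above for Cma1 and Tpsb2 and below for Tpsab1 and Hdc. Of all tested genes 22.2% lay above and 26.9% below. For EHP-101 over ajulemic acid the log2 fold changes ran from -0.51 for Ms4a2 to 0.39 for Hdc. The 95% intervals were -0.71 to 1.48 for Hdc and -2.54 to 1.85 for Cpa3, so that for Cpa3 differences of several-fold in either direction lie inside. Of the 9 tested members 0 passed edgeR's test, where 0.0% of all genes were called higher and 0.0% lower. Before adjustment 0 had a p under 0.05, against 1.97% of all genes higher and 0.397% lower, and 5 were above 0 and 4 below, against 45.5% and 54.5% of all genes. DESeq2 called 0 members, against 0.368% of its genes higher.

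EHP-101 and ajulemic acid were compared with control too, the same library as for bleomycin alone. Tpsab1 was at 4.64 CPM with EHP-101 and 4.22 ± 1.25 CPM (SD, n = 3) with ajulemic acid, against 2.04 CPM in control. The log2 fold changes were 1.18 (SE 0.53, adjusted p = 1.0 by edgeR) with EHP-101 and 1.04 (SE 0.44, adjusted p = 0.792) with ajulemic acid. For Hdc they were 1.11 (SE 0.53) and 0.72 (SE 0.44) in that order, and for Cma1 -0.82 (SE 0.68) and -0.60 (SE 0.55). Of the 9 tested members 0 passed in either comparison, where 0.0% of all genes were called higher and 0.0% lower with EHP-101, and 0.0% higher and 0.0345% lower with ajulemic acid. Before adjustment 0 members in either had a p under 0.05, against 2.92% of all genes higher and 1.71% lower with EHP-101 and 3.02% higher and 4.1% lower with ajulemic acid. DESeq2 called 0 members, against 0.537% higher and 0.162% lower with EHP-101 and 0.51% higher and 0.944% lower with ajulemic acid. In both comparisons 5 members were above 0 and 4 below, against 50.1% and 49.9% of all genes with EHP-101 and 54.9% and 45.1% with ajulemic acid.

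Other genes of mast cells came from a list of 27, of which 23 were tested and 0 passed edgeR's test in any of the 6 comparisons. In bleomycin over control 19 of the 23 were above 0 and 4 below, with a median of 0.53, against 49.5% of all genes above 0 and a median of -0.01. The list includes genes that other leukocytes also express, so this count does not describe mast cells alone. It was also chosen with earlier results of these data known, and all its values rest on the same single bleomycin and control libraries. The 5 member proteases had a median of -0.59 in the same comparison. Before adjustment 2 were higher with a p under 0.05, against 4.7% of all genes. Il1rl1, the receptor for interleukin-33, was at 10.1 CPM with EHP-101, at 14.0, 13.4 and 9.53 CPM with ajulemic acid, at 22.1 CPM in bleomycin alone and at 9.20 CPM in control. Bleomycin alone was above all the others, which ranged from 9.20 to 14.0 CPM, and the log2 fold change over control was 1.26 (SE 0.36, unadjusted p = 0.0197, adjusted p = 0.67 by edgeR). The adaptor Lat2, which signals downstream of the IgE receptor, was at 12.8 CPM in bleomycin alone and 6.50 CPM in control, and the leukotriene enzyme Alox5 at 13.2 and 6.96 CPM in the same order. Il1rl1, Lat2 and Alox5 are also expressed by other leukocytes. The macrophage markers Adgre1, Cd68 and Csf1r summed to 214 CPM in bleomycin alone and 150 CPM in control, all 3 with counts in each library. The part of macrophages in these levels was not tested.

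Kit, the receptor for stem cell factor on which mast cells depend, did not follow the proteases. It was at 29.2 CPM with EHP-101, at 23.3, 17.8 and 29.4 CPM with ajulemic acid, at 17.3 CPM in bleomycin alone and at 32.5 CPM in control. Ajulemic acid replicate 2, highest for Cpa3, was next to lowest for Kit. Melanocytes also express Kit, and the markers Dct, Tyrp1 and Pmel summed to 232 CPM with EHP-101, 262, 53.4 and 463 CPM with ajulemic acid, 82.9 CPM in bleomycin alone and 222 CPM in control, with all 3 detected in each library. Replicate 2 and bleomycin alone were the lowest for the melanocyte sum as they were for Kit. The part of melanocytes in the Kit level was not tested.

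Ligands, growth factors and cytokine receptors of mast cells came from a list of 14. Of these 11 were tested, 0 passed in any comparison and 9 were above 0 in bleomycin over control. Their median was 0.61, against 49.5% of all genes above 0 and a median of -0.01. Kitl, stem cell factor itself, was at 82.3 CPM with EHP-101, at 61.3, 63.9 and 70.2 CPM with ajulemic acid, at 53.5 CPM in bleomycin alone and at 73.1 CPM in control. Csf2rb, the shared receptor chain for interleukin-3 and related cytokines, was at 40.7 CPM in bleomycin alone and 18.7 CPM in control, a log2 fold change of 1.12 (SE 0.33, adjusted p = 0.682 by edgeR). Tnf, a cytokine that mast cells also store, was at 2.50 CPM in bleomycin alone and 1.64 CPM in control. Of 6 histamine receptors and breakdown enzymes 3 were tested, 0 passed and 0 were above 0 in bleomycin over control, with a median of -0.29 beside the same values over all genes. The breakdown enzyme Hnmt was at 4.75 CPM in bleomycin alone and 7.16 CPM in control, a log2 fold change of -0.59 (SE 0.59), opposite in sign to that of Hdc. The receptors Hrh1 and Hrh2 were at 1.67 and 0.898 CPM in bleomycin alone and at 2.04 and 0.986 CPM in control. Both lists were chosen with earlier results of these data known.

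**Figure D4:**
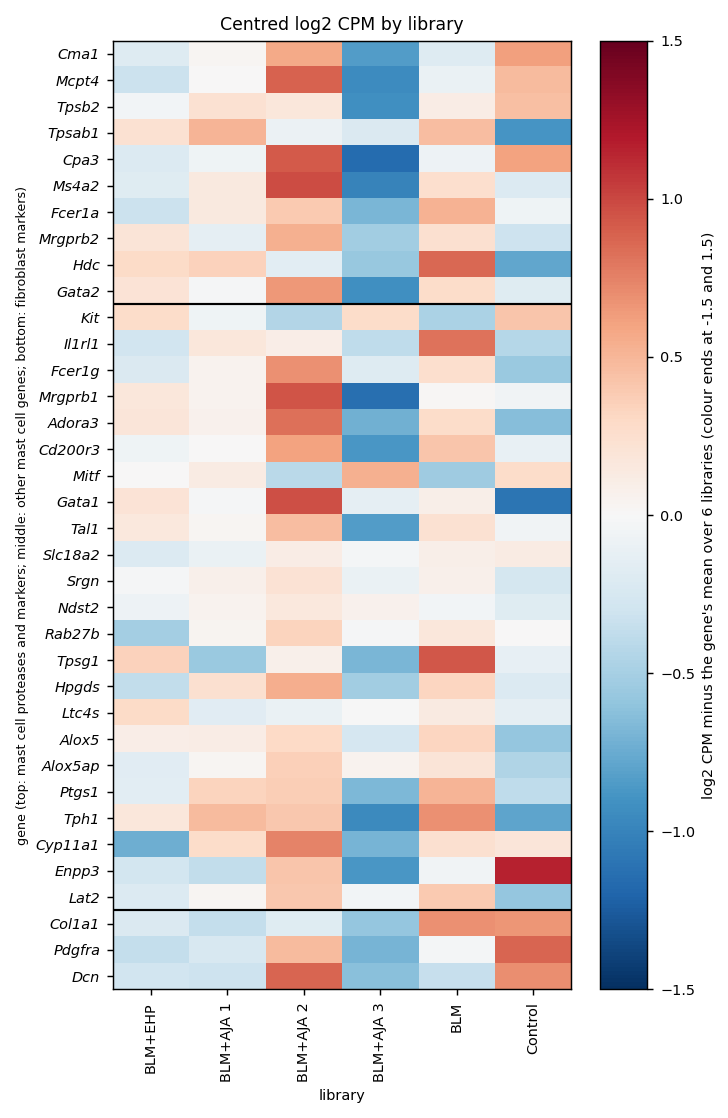
Log2 CPM of each gene minus its mean over the 6 libraries (colour, limits -1.5 and 1.5) for the 10 mast cell genes, 23 other tested mast cell genes and 3 fibroblast markers. Cpa3 runs from 0.92 in ajulemic acid replicate 2 to -1.16 in replicate 3, whereas Hdc is highest in bleomycin alone at 0.86 and lowest in control at -0.78.

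The median level of the 5 proteases differed widely among replicates of the ajulemic acid group. The median of their centred log2 CPM was -0.19 with EHP-101, 0.03, 0.57 and -0.92 with ajulemic acid, -0.08 in bleomycin alone and 0.48 in control. The share of counts from mitochondrial ribosomal RNA was 17.9% with EHP-101, 17.3, 26.1 and 18.5% with ajulemic acid, 19.7% in bleomycin alone and 26.5% in control, so it was highest in the libraries where the protease median was highest. With that RNA left out, the log2 fold change of bleomycin over control was -0.84 for Cma1, -0.60 for Mcpt4 and -0.70 for Cpa3, close to the values above. Its part as a sign of RNA quality or library composition was not tested. Cma1, Mcpt4, Cpa3 and Tpsb2 stayed close to this profile, which they define, and Tpsab1 did not. The root mean square distance from it was 0.0798 for Cma1 and 0.762 for Tpsab1 on the log2 scale, where the median of the 15345 genes ranked was 0.538. Outside the proteases, Gata2 was at 0.346 and Mrgprb2 at 0.418, nearer than that median, while Hdc was at 0.758 and Kit at 0.686.

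The 8 genes nearest to the profile that are not on a mast cell list were 4931431C16Rik, Shc2, Zfp982, C1s2, Larp6, Sned1, AW112010 and C1ra, at distances of 0.081 to 0.125 over 6 libraries. C1s2 and C1ra encode complement proteases, Shc2 a signalling adaptor, Sned1 an extracellular matrix protein and Larp6 a protein that binds collagen messenger RNA. Of the fibroblast markers, Dcn was at 305 CPM with EHP-101, 302, 682 and 241 CPM with ajulemic acid, 294 CPM in bleomycin alone and 605 CPM in control. Pdgfra was at 50.3 CPM with EHP-101, 54.5, 89.4 and 39.5 CPM with ajulemic acid, 63.1 CPM in bleomycin alone and 118 CPM in control. Col1a1 was at 903 CPM with EHP-101, 817, 927 and 704 CPM with ajulemic acid, 1680 CPM in bleomycin alone and 1660 CPM in control. Dcn and Pdgfra were thus highest in ajulemic acid replicate 2 and control, as the protease median was, while Col1a1 was highest in bleomycin alone and control. The 3 markers, all with counts in each library, summed to 1260 CPM with EHP-101, 1170, 1700 and 984 CPM with ajulemic acid, 2040 CPM in bleomycin alone and 2390 CPM in control. The part of dermal content in the protease levels was not tested.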

How the data were processed

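Raw counts per gene were deposited by the authors, made with featureCounts per the series description, with exon lengths and NCBI gene numbers. Per the submitters' processing notes the build was mm10 and the tools were DESeq2 1.20.0, featureCounts 1.6.1, HISAT2 2.1.0 and Trimmomatic 0.36. Libraries were stranded, depleted of ribosomal RNA and sequenced as single reads of 50 bases, per the labels' protocols. How strand and multiply matching reads were treated in counting is not stated. The merged table repeats these 6 libraries, with 0 values that differ. Its remaining 6 sample columns, from another series, were left aside.

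Symbols came from RefSeq (GRCm38.p6) for 25275 of 27179 gene numbers. edgeR 4.0.16 (R 4.3.3) was run on all 6 libraries in 1 fit, with filterByExpr (minimum count 10, 17377 genes tested), TMM, robust two-sided quasi-likelihood F-tests, Benjamini-Hochberg adjustment over all genes and a threshold of 0.05. The ajulemic acid group alone gave the spread, with 2 residual degrees of freedom (common biological coefficient of variation 0.267). Intervals of fold changes are 95% intervals from that fit. Intervals of levels and ratios are exact 95% Poisson and binomial intervals for counting error only. Log2 CPM used a prior count of 3. Transcripts were aligned with Biopython 1.88. The test step was tested on simulated data.

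The members and lists were chosen with earlier results of these data known. Besides the members, the text names up to 4 genes of each list by smallest p in bleomycin against control among those averaging 0 or more in log2 CPM, genes that define a cell type, and the 8 genes closest to the protease profile. 1 gene that this rule names is not reported here. The comparison of members with protein sequences was not made, and transcripts were used. The alternatives were DESeq2 1.42.0, limma-trend (limma 3.58.1), DESeq2 size factors, no filter, mitochondrial ribosomal RNA left out, and leaving out each ajulemic acid library.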

Additional observations from a re-analysis of the deposited data

How the results depend on the processing

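Across the main settings and the 8 alternatives, 0 members were called in any comparison, and the smallest adjusted p of a member was 0.116, for Hdc in bleomycin against control. That value came from leaving out ajulemic acid replicate 3, so the spread rested on replicates 1 and 2 alone. The log2 fold change of Hdc there was 1.69, as with the main settings. No paired analysis was possible because the groups compared share fewer than 2 replicate numbers. Of 432 log2 fold changes of members under an alternative 26 changed sign, 21 of them on leaving out an ajulemic acid library. The causes were not tested. Fcer1a and Ms4a2 are limited by depth, with 36 and 85 counts over the 6 libraries.

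Counts over all genes moved with the tool. DESeq2 called 127 higher and 37 lower in bleomycin against control, 2 higher and 8 lower in EHP-101 against bleomycin, 4 higher and 100 lower in ajulemic acid against bleomycin, 93 higher and 28 lower in EHP-101 against control, 95 higher and 176 lower in ajulemic acid against control, and 67 higher in EHP-101 against ajulemic acid. With no filter on low counts, 41 were lower in ajulemic acid against bleomycin, 27 higher and 126 lower in ajulemic acid against control and 16 higher in EHP-101 against ajulemic acid. In ajulemic acid against control limma-trend called 0 lower, where the main settings called 6. Leaving out 1 ajulemic acid library at a time gave 0 to 139 higher and 0 to 38 lower in bleomycin against control, 0 to 7 higher and 0 to 90 lower in ajulemic acid against bleomycin, 0 to 72 higher and 0 to 19 lower in EHP-101 against control, 0 to 137 higher and 0 to 230 lower in ajulemic acid against control and 0 to 65 higher and 0 to 2 lower in EHP-101 against ajulemic acid.

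The sign of a member's log2 fold change turned in 5 values besides those that left out a library, all close to 0. For EHP-101 against bleomycin Cma1 was at -0.00036 by DESeq2 and -0.0034 with DESeq2 size factors. For ajulemic acid against bleomycin Cpa3 was at -0.02 by limma-trend, and Ms4a2 at 0.002 by DESeq2 and 0.0038 with no filter. Other signs turned on leaving out 1 ajulemic acid library, as ranges of the log2 fold change over the 3 omissions. In ajulemic acid against bleomycin the range was Cma1 -0.14 to 0.52, Mcpt4 -0.28 to 0.62, Tpsb2 -0.39 to 0.09, Cpa3 -0.42 to 0.60, Ms4a2 -0.75 to 0.45, Mrgprb2 -0.55 to 0.0029 and Gata2 -0.71 to 0.09. In EHP-101 against control the range was Ms4a2 -0.0014 to 0.03. In ajulemic acid against control the range was Mcpt4 -0.94 to 0.03, Ms4a2 -0.27 to 0.99, Mrgprb2 -0.06 to 0.56 and Gata2 -0.31 to 0.55. In EHP-101 against ajulemic acid the range was Cma1 -0.52 to 0.18, Mcpt4 -0.84 to 0.10, Tpsb2 -0.24 to 0.24, Tpsab1 -0.0034 to 0.40, Cpa3 -0.72 to 0.33, Ms4a2 -0.96 to 0.27, Mrgprb2 -0.05 to 0.53 and Gata2 -0.16 to 0.67.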
